A study of Mus musculus with 24 samples.

Results

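The IFIT, IFITM and IFI44 genes are interferon-stimulated antiviral genes, and 9 of them were followed in mouse bone marrow-derived macrophages (BMDMs): Ifit1, Ifit2, Ifit3, Ifitm1, Ifitm2, Ifitm3, Ifitm6, Ifi44 and Ifi35. They were chosen by name and function, with earlier results of these data known, from the 24273 genes of the table. All 9 passed the filter on low values that left 13901 genes for testing. BMDMs are derived by culture of bone marrow cells with a macrophage growth factor, here from C57BL/6 mice whose age the labels do not give. Every library came from cells that carried LysM-Cre, a Cre recombinase placed at the Lyz2 locus so that it is made in myeloid cells. In the group named FosKO both Fos alleles were floxed, so that Cre was meant to delete Fos, whereas the controls, named LysM-Cre, had the driver and, by the study's text but not by the series' own design, 1 floxed Fos allele as well. Cells grown for 7 days with L-cell conditioned medium and kept overnight in 1% FBS were left untreated (0 h) or received 100 ng/ml of lipopolysaccharide (LPS), which TLR4 senses on bacteria, for 0.5, 1 or 2 h. There were 8 groups of 3 libraries, which the methods call biological replicates. Neither they nor the labels say that these came from separate mice, so p-values measure the spread between these libraries. The question addressed was how the level of these genes differed between the genotypes before and during LPS.

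Type I interferon is made by macrophages after TLR4 or virus sensing, binds its receptor (IFNAR1 and IFNAR2) on the same and neighbouring cells, and signals through the kinases JAK1 and TYK2 to a transcription factor complex that includes STAT2 and IRF9 and binds the interferon-stimulated response element of its target genes. IFIT proteins bind viral RNA, in particular RNA that lacks the methylation marks of host caps, and keep it from being translated. IFITM proteins sit in cell membranes and hinder the fusion of enveloped viruses, IFITM3 mainly in endosomes. IFI44 and IFI35 are further interferon-induced proteins, of which IFI35 pairs with NMI. Ifit genes of the mouse include related copies, so that reads of Ifit3 may be shared with Ifit3b, and those of Ifit1 with Ifit1bl1 and Ifit1bl2. How many reads were shared was not measured, and their separate values are uncertain to that extent.

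On the GRCm38 build (GENCODE M21) the 3 Ifit genes lie on the plus strand of chromosome 19, with Ifit2 at chr19:34550694-34576419, Ifit3 at chr19:34583531-34588731 and Ifit1 at chr19:34640871-34650009. The 4 Ifitm genes lie together on chromosome 7, with Ifitm2 at chr7:140954837-140955987, Ifitm3 at chr7:141009586-141010770 and Ifitm6 at chr7:141015699-141017924 on the minus strand, and Ifitm1 at chr7:140967221-140969825 on the plus strand. Ifi44 is at chr3:151730922-151749960 on the minus strand and Ifi35 at chr11:101448407-101458698 on the plus strand. All 9 are annotated as protein-coding. Ifitm2 shares 268 exon bases on the same strand with Gm45717, whose level in the table was at most -0.08 on the log2 scale, and Ifi35 shares 290 bases with the antisense gene Gm11626, at most 2.20.

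Promoter windows of 300 bases (250 before and 50 after the start of the gene) were available from RefSeq (GRCm38.p6) for all 9 genes. Both strands were searched for GAAANNGAAA, the core of the interferon-stimulated response element. At least 1 match was found in 4 of the 9 genes, Ifit1, Ifit3, Ifitm2 and Ifitm3, against 3.99% of 27025 genes with a window. TGANTCA, the site of AP-1, the dimer that FOS forms with JUN, was found in 3 of 9 (Ifit3, Ifitm3 and Ifi35; 8.97% of genes), and TTCNNNGAA, the gamma-activated sequence, in 4 of 9 (Ifit2, Ifitm3, Ifitm6 and Ifi35; 9.55% of genes). The Ifitm3 match to TTCNNNGAA overlaps one of its GAAANNGAAA matches. A match is a description of the letters and not a measured binding site. The stretches below are shown because the genes were at least 2-fold higher in FosKO at every time (Ifit1, Ifit3, Ifit2, Ifi44) or because they set the IFITM gene called higher at every time beside one called higher only at 0.5 h (Ifitm3, Ifitm2). Capitals mark GAAANNGAAA or its reverse complement, and each is written 5′ to 3′ on the strand of its gene.

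Ifit1 promoter, chr19:34640739-34640858, plus strand, bases -150 to -31: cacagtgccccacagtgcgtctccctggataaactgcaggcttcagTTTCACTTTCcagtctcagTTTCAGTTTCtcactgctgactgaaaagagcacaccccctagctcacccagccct

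Ifit3 promoter, chr19:34583359-34583498, plus strand, bases -170 to -31: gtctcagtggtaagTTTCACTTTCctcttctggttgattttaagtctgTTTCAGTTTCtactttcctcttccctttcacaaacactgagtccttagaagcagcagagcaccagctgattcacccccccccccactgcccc

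Ifit2 promoter, first of 2 windows, chr19:34550544-34550663, plus strand, bases -150 to -31: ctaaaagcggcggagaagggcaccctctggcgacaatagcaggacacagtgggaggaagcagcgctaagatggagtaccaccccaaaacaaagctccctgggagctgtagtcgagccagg

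Ifi44 promoter, chr3:151749941-151750060, minus strand, bases -150 to -31: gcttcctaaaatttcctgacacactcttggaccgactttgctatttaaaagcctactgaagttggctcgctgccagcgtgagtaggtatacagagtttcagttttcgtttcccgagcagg

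Ifitm2 promoter, chr7:140955992-140956111, minus strand, bases -150 to -31: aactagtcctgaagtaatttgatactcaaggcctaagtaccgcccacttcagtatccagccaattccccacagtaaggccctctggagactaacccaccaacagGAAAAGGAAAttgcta

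Ifitm3, first match, chr7:141010725-141010750, minus strand, bases -6 to 20: aaattcagGAAAAGGAAActtctgag

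Ifitm3, second match, chr7:141010708-141010733, minus strand, bases 12 to 37: acttctgaGAAACCGAAActgccgca

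Ifit1 and Ifit3 each held 2 such elements upstream of the start, at bases -104 to -95 and -85 to -76 in Ifit1 and at -156 to -147 and -122 to -113 in Ifit3. The 2 Ifit1 elements also lie in a promoter window of Ifit1bl2, which is read from the other strand. Neither window of Ifit2 and not the window of Ifi44 held a match, which says only that these letters are not in those windows. Ifitm2 had 1 element at bases -46 to -37, and both elements of Ifitm3 lay just after the annotated start, at bases 3 to 12 and 20 to 29.

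Values are on the log2 scale, as the authors deposited them after normalisation. They resemble a regularised log, which shrinks a gene with few reads to its overall mean, and the reads behind each library are not known here, since the methods give only a typical yield. Differences were tested with limma over all 13901 genes, a gene was called at a Benjamini-Hochberg adjusted p under 0.05, and a log2 difference of 1 is 2-fold. Labels could not be checked with Fos, since its gene-level value in the FosKO libraries was 1.49, 1.64 and 3.29 above LysM-Cre at 0, 1 and 2 h and -0.77 at 0.5 h. From 0 to 0.5 h of LPS its group mean went from 11.11 to 13.52 in LysM-Cre and from 12.60 to 12.75 in FosKO. Gene-level values can include reads outside the deleted part, and which exons were floxed is not given in the sources used here. Names of genotypes are therefore names of libraries as labelled. Lyz2, the locus that carries Cre, was 4.89 to 5.17 higher in libraries labelled FosKO, and its part in the results was not tested. All 6 macrophage markers were detected, with a summed level of 16.96 to 17.06 in LysM-Cre and 16.96 to 17.15 in FosKO. The sum hides members that moved apart at 0 h, where Mertk (0.97), Fcgr1 (0.65) and Cd68 (0.21) were higher in FosKO, Adgre1 (-0.15) and Csf1r (-0.14) were lower, and 1 of the 2 rows of Itgam was lower (-0.19). Defining markers of T, B and NK cells (0 of 3 each) did not pass the filter, and the summed level of neutrophil markers (2 of 6 passed) was 5.69 to 6.70 in LysM-Cre and 5.15 to 5.83 in FosKO, that of plasmacytoid dendritic cell markers (2 of 6) 5.22 to 5.72 and 5.52 to 5.90, that of conventional dendritic cell markers (3 of 5) 5.01 to 6.95 and 5.01 to 6.50, and that of fibroblast markers (3 of 4) 4.11 to 5.01 and 4.02 to 4.64. Of these, Cox6a2, a plasmacytoid dendritic cell marker, was higher in FosKO at all 4 times (0.56 at 0 h), and of the neutrophil markers S100a9 was lower at all 4 (-0.81 at 0 h) and S100a8 at 0 h (-0.47), 1 h and 2 h. The part of these markers in the results was not tested. In such bulk samples fewer cells of a type and less RNA per cell cannot be told apart. An 18S ribosomal RNA transcript split the libraries into 5 with a low level (16.65 to 17.00) and 19 with a high one (18.57 to 19.39). The low libraries were 1 of each genotype at 0.5 h, and 2 of LysM-Cre and 1 of FosKO at 1 h, so differences between genotypes within each set are given beside those times. The low set held no library at 0 h, so changes with LPS are not given by set.

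Before LPS, the libraries labelled FosKO had higher levels of Ifit1, Ifit2, Ifit3, Ifi44, Ifi35 and Ifitm3 than LysM-Cre, and the same 6 genes were higher at 0.5, 1 and 2 h. Ifit1, Ifit2, Ifit3 and Ifi44 were at least 2-fold higher at each time, Ifi35 and Ifitm3 by less, and Ifitm1 and Ifitm6 were not called at any time. Ifit1 at 2 h (1.03) was short of 2-fold under quantile normalisation (0.81) and without LysM-Cre 2 h replicate 1 or replicate 2, which leaves 3 genes past 2-fold at that time. At 0 h 6 of 9 genes were higher and 0 lower, where 35.4% of all tested genes were called and 19.5% were called higher. At 0.5 h 7 were higher (40.9% called in either direction, 21.2% higher), the seventh being Ifitm2, at 1 h 6 (33.9% and 18%) and at 2 h 6 (44.6% and 24.4%), with 0 lower at each time. The 4 genes past 2-fold stood beside 1.02%, 1.49%, 1.15% and 1.43% of all tested genes at 0, 0.5, 1 and 2 h, and the 6 genes that were called higher at all 4 times stood beside 11.4%. The median difference over the 9 genes was 0.58, 0.70, 0.62 and 0.54, where that of all tested genes was 0.00 at each time. In these 6 genes the 3 FosKO libraries lay above the 3 LysM-Cre libraries at each of the 4 times, and in Ifitm2 at 0.5 h. At the single times 0, 0.5, 1 and 2 h, 24%, 25.9%, 23.7% and 28.9% of all tested genes were separated so. The 6 genes were picked because they were called higher, so their lack of overlap adds no support to those calls.

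**Figure D1:**
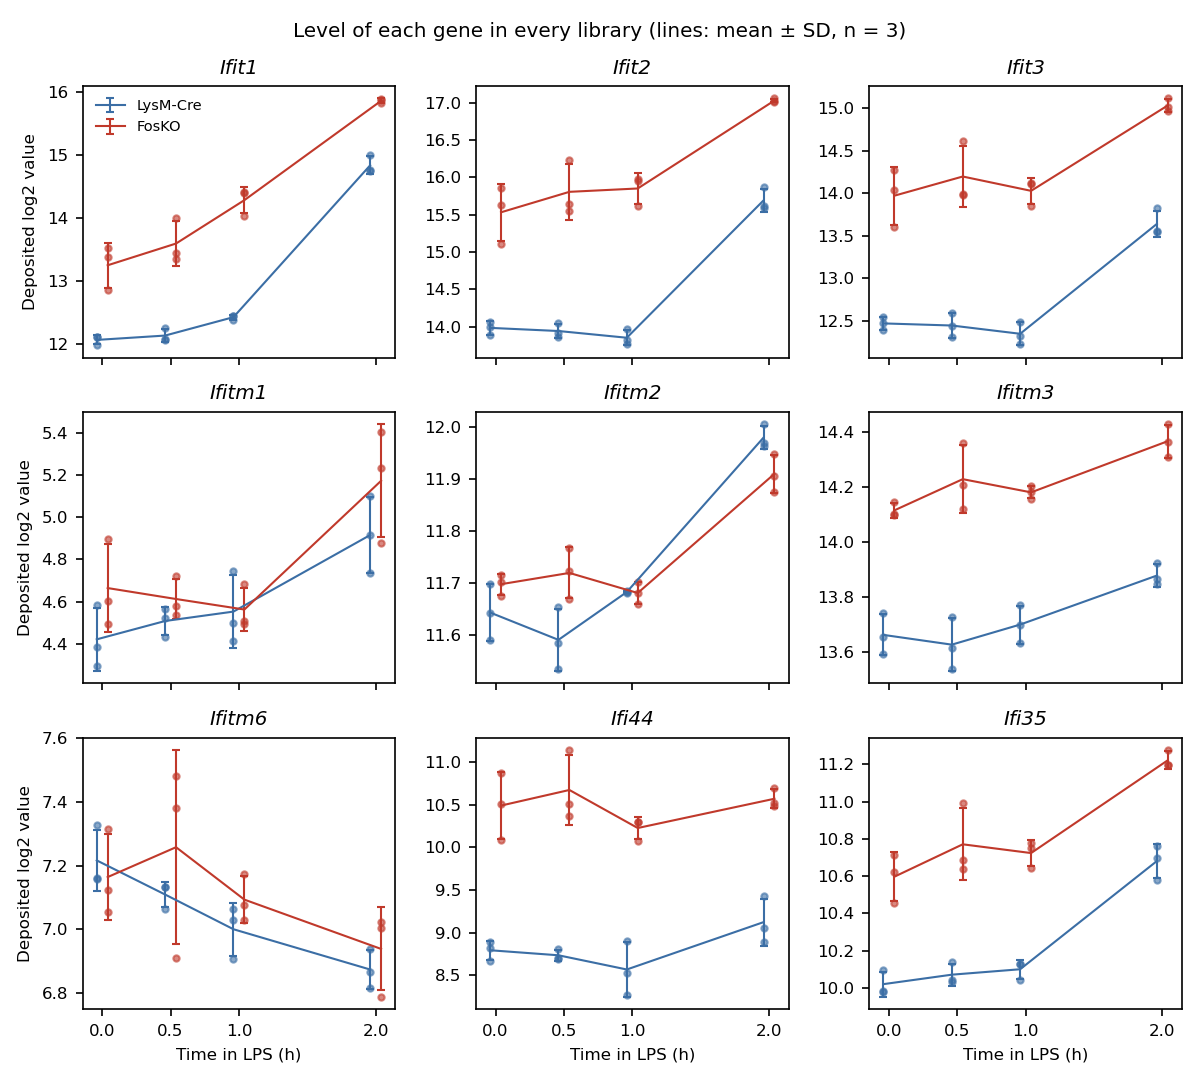
Deposited log2 value of each of the 9 genes against time in LPS (h), with a point for each library and lines through the group means with SD (n = 3), in blue for LysM-Cre and red for FosKO, each panel on its own scale. The red points lie above the blue at every time for Ifit1, Ifit2, Ifit3, Ifitm3, Ifi44 and Ifi35, and the genotypes mix for Ifitm1 and Ifitm6.

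**Figure D2:**
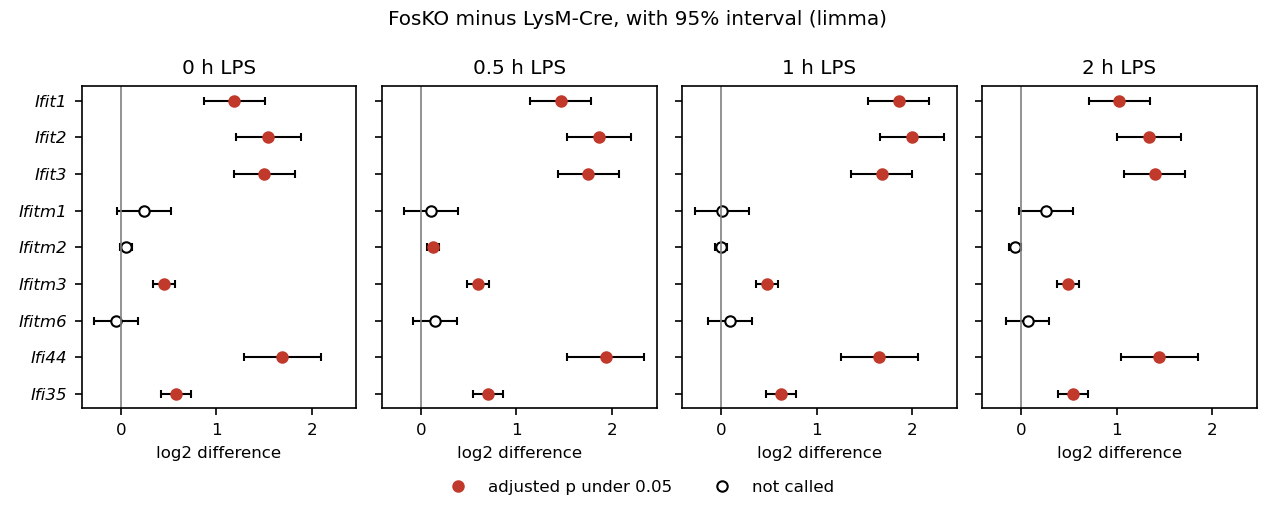
Difference in log2 value, FosKO minus LysM-Cre, for each gene at 0, 0.5, 1 and 2 h of LPS, with its 95% interval from limma. Filled points have an adjusted p under 0.05, and the 4 genes past a log2 difference of 1 at each time are Ifit1, Ifit2, Ifit3 and Ifi44.

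Ifit2 had the highest deposited level of the IFIT genes. At 0 h its log2 values were 14.07, 14.00 and 13.89 in LysM-Cre and 15.11, 15.63 and 15.86 in FosKO. All FosKO values lay above all control values, by 1.55 on average (SE 0.16, adjusted p = 3.05e-07), which is 2.92-fold. The difference was 1.86 at 0.5 h (1.98 and 1.63 within the high and low 18S sets), 2.00 at 1 h (2.19 and 1.72) and 1.34 at 2 h. At 2 h the controls reached 15.62, 15.59 and 15.87, a range that the untreated FosKO libraries already overlapped, and FosKO reached 17.01, 17.02 and 17.06.

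Ifit3, which acts in a complex with the other IFIT proteins, had log2 values of 12.54, 12.47 and 12.39 in LysM-Cre and 13.60, 14.04 and 14.27 in FosKO at 0 h. The FosKO libraries were higher by 1.50 (SE 0.15, adjusted p = 2.23e-07), with no overlap. The difference was 1.75 at 0.5 h (1.85 and 1.56 within 18S sets), 1.68 at 1 h (1.89 and 1.44) and 1.40 at 2 h. At 2 h the values were 13.55, 13.54 and 13.82 in LysM-Cre and 15.02, 14.96 and 15.12 in FosKO. As for Ifit2, the untreated FosKO libraries overlapped the LysM-Cre libraries at 2 h.

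Ifit1, which binds the capped end of viral RNA, had log2 values of 12.10, 12.10 and 11.98 in LysM-Cre and 12.85, 13.37 and 13.52 in FosKO at 0 h. The difference was 1.19 (SE 0.15, adjusted p = 3.98e-06), or 2.28-fold, and the groups did not overlap. It was 1.46 at 0.5 h (1.56 and 1.27 within 18S sets), 1.86 at 1 h (2.03 and 1.59) and 1.03 at 2 h. At 1 h the LysM-Cre values were 12.37, 12.45 and 12.45 and the FosKO values 14.04, 14.40 and 14.42. At 2 h the LysM-Cre values of 14.76, 14.75 and 15.00 were above every FosKO library at 0, 0.5 and 1 h, and those of FosKO were 15.82, 15.87 and 15.90. In this order of groups Ifit1 differed from Ifit2, Ifit3 and Ifi35, in which untreated FosKO cells overlapped controls given LPS for 2 h.

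Ifi44 had the largest difference of the 9 genes before LPS. Its log2 values at 0 h were 8.82, 8.89 and 8.67 in LysM-Cre and 10.09, 10.51 and 10.87 in FosKO, a difference of 1.69 (SE 0.19, adjusted p = 8.74e-07). It was 1.94 at 0.5 h (2.06 and 1.69 within 18S sets), 1.66 at 1 h (2.03 and 1.36) and 1.45 at 2 h. All 12 FosKO libraries lay above all 12 LysM-Cre libraries whatever the time, the lowest FosKO value being 10.08 and the highest LysM-Cre value 9.43. The share of all tested genes with this separation was not determined, so it is not shown to be particular to Ifi44. Among the LysM-Cre groups successive times overlapped. In FosKO 0 and 0.5 h overlapped, whereas the values at 1 h (10.08 to 10.30) lay below those at 0.5 h (10.37 to 11.14) and 2 h (10.49 to 10.70).

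Ifi35 differed by less. Its log2 values at 0 h were 10.10, 9.98 and 9.98 in LysM-Cre and 10.46, 10.62 and 10.71 in FosKO, a difference of 0.58 (SE 0.08, adjusted p = 4.98e-06). The later differences were 0.70 at 0.5 h (0.75 and 0.60 within 18S sets), 0.62 at 1 h (0.72 and 0.51) and 0.54 at 2 h.

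Of the 4 IFITM genes, Ifitm3 alone was called at all 4 times. Its log2 values at 0 h were 13.74, 13.66 and 13.59 in LysM-Cre and 14.10, 14.10 and 14.15 in FosKO, and the difference was 0.45 (SE 0.06, adjusted p = 2.08e-06), or 1.37-fold. It was 0.60 at 0.5 h (0.61 and 0.59 within 18S sets), 0.48 at 1 h (0.55 and 0.45) and 0.49 at 2 h, the last 0.23 under quantile normalisation and still called. On the deposited scale all 12 FosKO libraries lay above all 12 LysM-Cre libraries, with 13.92 the highest LysM-Cre value and 14.10 the lowest FosKO value. As for Ifi44, the share of all tested genes with this separation was not determined. In untreated LysM-Cre, Ifitm3 had the highest level per kb of exon of the 9 genes, at 14.22 ± 0.07 (SD, n = 3), above Ifitm2 at 12.25 ± 0.05, Ifit2 at 12.01 ± 0.09, Ifit3 at 11.66 ± 0.08, Ifit1 at 10.65 ± 0.07, Ifi35 at 9.23 ± 0.07, Ifitm6 at 7.36 ± 0.10, Ifi44 at 6.18 ± 0.11 and Ifitm1 at 4.29 ± 0.15 on the log2 scale. In FosKO at 2 h Ifit2 stood above it, at 15.06 ± 0.03 against 14.93 ± 0.06.

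Ifitm2, which like Ifitm3 hinders virus entry, differed little. At 0 h its log2 values were 11.70, 11.64 and 11.59 in LysM-Cre and 11.72, 11.68 and 11.70 in FosKO, and the difference of 0.05 was not called (95% interval -0.01 to 0.12, adjusted p = 0.195). It was called higher at 0.5 h at 0.13 (SE 0.03, adjusted p = 0.00241; 0.12 and 0.14 within 18S sets), a call that was lost under quantile normalisation (0.04, adjusted p = 0.310). At 1 h the difference was -0.00 (95% interval -0.07 to 0.06; -0.001 and -0.002 within 18S sets). At 2 h it was -0.07 (adjusted p = 0.0795), with the FosKO values of 11.95, 11.87 and 11.91 below the LysM-Cre values of 11.97, 11.96 and 12.00. That difference was called lower under quantile normalisation (-0.19), with TMM factors (-0.09) and without FosKO 2 h replicate 1 (adjusted p = 0.0482).

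Ifitm1 and Ifitm6 were the genes in which genotypes overlapped at every time. Ifitm1 was at 4.29, 4.59 and 4.38 in LysM-Cre and 4.90, 4.60 and 4.50 in FosKO at 0 h, where a difference would be understated by that shrinkage. Its differences were 0.24 (95% interval -0.04 to 0.53), 0.10 (-0.18 to 0.39), 0.01 (-0.27 to 0.29) and 0.26 (-0.03 to 0.54) at 0, 0.5, 1 and 2 h, and the last was called without FosKO 2 h replicate 2 (0.40, adjusted p = 0.0229). Ifitm6 was at 7.33, 7.16 and 7.16 in LysM-Cre and 7.05, 7.12 and 7.32 in FosKO at 0 h. Its differences were -0.05 (95% interval -0.28 to 0.18), 0.15 (-0.08 to 0.38), 0.09 (-0.14 to 0.32) and 0.06 (-0.16 to 0.29), and that at 0.5 h was called without FosKO 0.5 h replicate 2 (0.32, adjusted p = 0.00630). On this scale the intervals leave out a 2-fold difference of either gene in either direction.

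LPS raised most of the 9 genes, but late. Within LysM-Cre, 0 of 9 were called at 0.5 h (0 at an unadjusted p under 0.05; 7.24% of all tested genes were called) and 0 at 1 h (1 at an unadjusted p under 0.05; 35.8%). Under quantile normalisation 3 were called lower at 1 h, Ifit2 (-0.43, adjusted p = 0.0162), Ifitm2 (-0.10) and Ifitm3 (-0.20). At 2 h 7 were higher and 1 lower, where 60.8% of all genes were called and 30.6% were called higher. Ifit1 rose by 2.78 (SE 0.15, adjusted p = 1.61e-12), or 6.86-fold, Ifit2 by 1.71 (SE 0.16, adjusted p = 1.04e-08) and Ifit3 by 1.17 (SE 0.15, adjusted p = 1.14e-06). These 3 were past 2-fold, as were 5.43% of all genes, but Ifit3 was at 0.87 under quantile normalisation. Ifi35 rose by 0.66 and Ifitm1 by 0.49, both with no overlap between 0 and 2 h. Ifitm2 rose by 0.34 and Ifitm3 by 0.22, small changes that depended on the scaling, since under quantile normalisation Ifitm3 turned over to -0.11 and Ifitm2 was at 0.07 and no longer called.

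Ifi44 was 0.33 above untreated at 2 h in LysM-Cre and was not called (95% interval -0.07 to 0.73, adjusted p = 0.150), although a fit of these groups alone called it (adjusted p = 0.0255). Ifitm6 fell by 0.34 (SE 0.11, adjusted p = 0.0102), with values of 6.87, 6.94 and 6.81 at 2 h all below those at 0 h. The Ifitm6 call was lost under quantile normalisation (adjusted p = 0.0949) and without LysM-Cre 0 h replicate 1 (-0.29, adjusted p = 0.0526).

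Within FosKO, 0 of 9 were called at 0.5 h (2 at an unadjusted p under 0.05; 5.92% of all genes called), 1 at 1 h (32.6%) and 7 at 2 h, all higher (62.1% called in either direction, 32.6% higher). The gene called at 1 h was Ifit1, which rose by 1.04 (SE 0.15, adjusted p = 1.57e-05). Ifit2 was at 0.32 (adjusted p = 0.147) and was called with the replicate number as a block within genotype (adjusted p = 0.0443) and without FosKO 0 h replicate 3 (0.48, adjusted p = 0.0324). In LysM-Cre the change of Ifit1 at 1 h was 0.36 (adjusted p = 0.0717), and it was called in a fit of these groups alone (adjusted p = 1.05e-04), with the replicate number as a block (adjusted p = 0.0426) and with the 18S set as a term (0.49, adjusted p = 0.0221). At 2 h Ifit1 rose by 2.62 in FosKO, Ifit2 by 1.50, Ifit3 by 1.06 (5.83% of all genes were past 2-fold), Ifi35 by 0.62 and Ifitm1 by 0.51, the last with overlapping ranges. Ifitm3 rose by 0.25 and Ifitm2 by 0.21, but under quantile normalisation both were called lower, at -0.28 (adjusted p = 9.22e-05) and -0.093 (adjusted p = 0.0211), so their direction depends on the scaling. The same normalisation kept the calls of Ifit3 and Ifi35 but gave 0.52 and 0.39, and Ifit3 was then short of 2-fold, as it was without FosKO 0 h replicate 1. Ifi44 was 0.08 above untreated (95% interval -0.32 to 0.48) and Ifitm6 -0.23 (adjusted p = 0.0805), and neither was called.

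**Figure D3:**
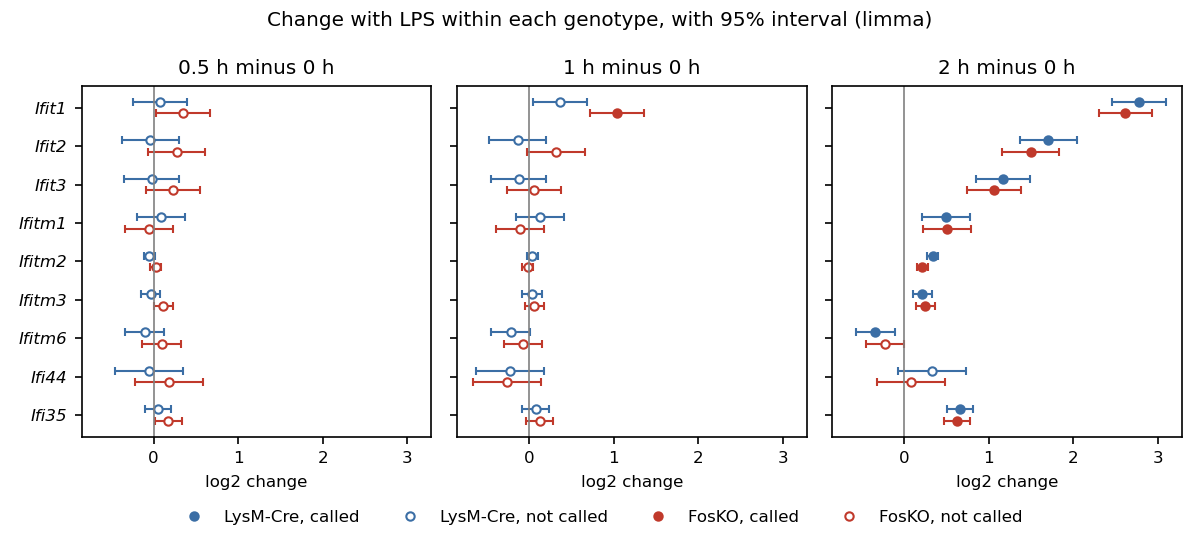
Change in log2 value from 0 h to 0.5, 1 and 2 h of LPS for each gene, with its 95% interval from limma, in blue for LysM-Cre and red for FosKO. Filled points have an adjusted p under 0.05, and at 2 h Ifit1 has the largest change in both genotypes, 2.78 and 2.62, while Ifi44 is called in neither.

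The LPS response itself was compared between genotypes as the change in FosKO minus the change in LysM-Cre. None of the 9 genes was called at 0.5, 1 or 2 h by limma (0, 1 and 1 at an unadjusted p under 0.05), where 0.115%, 1.22% and 15% of all genes were called. For Ifit1 the 1 h response was larger by 0.67 in FosKO (SE 0.22, adjusted p = 0.217), a value called with the replicate number as a block within genotype (adjusted p = 0.0280). For Ifitm2 the 2 h response was smaller by 0.12 in FosKO (-0.12, adjusted p = 0.0669), a value called under quantile normalisation, with TMM factors, with either replicate block and without LysM-Cre 0 h replicate 1. At 2 h the 95% intervals were -0.61 to 0.29 for Ifit1, -0.69 to 0.27 for Ifit2, -0.56 to 0.34 for Ifit3 and -0.82 to 0.32 for Ifi44. They leave out a response that is 2-fold larger or 2-fold smaller in FosKO, and a p that misses the threshold does not show that the responses were alike.

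Libraries of a group moved together in these genes. In untreated FosKO, replicate 1 was the lowest and replicate 3 the highest in 6 of 6 of the genes Ifit1, Ifit2, Ifit3, Ifitm3, Ifi44 and Ifi35. FosKO replicate 3 was also the highest in 6 of 6 at 0.5 h and at 2 h, but in 2 of 6 at 1 h, where replicate 2 was the highest in the other 4. The SD of Ifit2 was 0.38 in untreated FosKO and 0.09 in untreated LysM-Cre. The mean of 26 other interferon-stimulated effector genes in the same libraries was 12.12, 12.40 and 12.59 in untreated FosKO replicates 1, 2 and 3. After 0.5 h of LPS it was 12.44, 12.43 and 12.88, after 1 h 12.38, 12.59 and 12.61, and after 2 h 13.38, 13.39 and 13.48. Replicate 3 was the highest at each time, and in untreated LysM-Cre the means were 11.49, 11.39 and 11.33. Every difference between genotypes of these 6 genes stayed called without any 1 library.

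**Figure D4:**
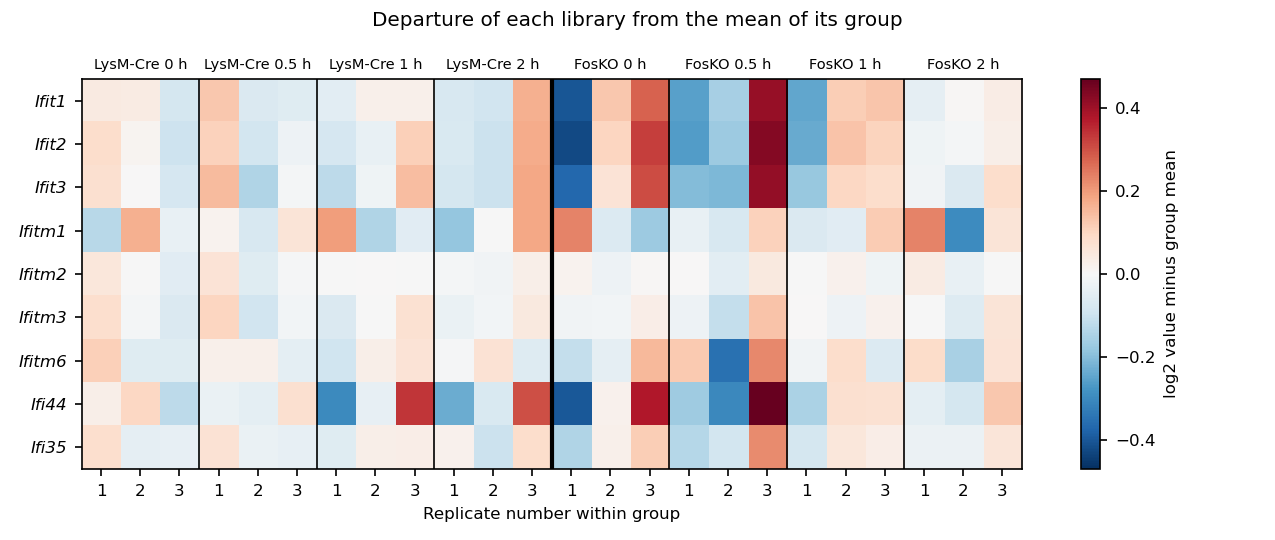
Departure of each library (columns, by group and replicate number) from its group mean in log2 value, for each of the 9 genes (rows), red above and blue below the mean. The Ifit genes, Ifi44 and Ifi35 deviate together, most in FosKO at 0 and 0.5 h, where replicate 3 is the highest.

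Over the 8 group means, Ifit2 and Ifi35 had the closest patterns among the 9 genes (r = 0.99), followed by Ifit2 and Ifit3 (r = 0.99), Ifi35 and Ifit3 (r = 0.98), Ifit3 and Ifitm3 (r = 0.97) and Ifi44 and Ifitm3 (r = 0.96). Ifit1 and Ifi44 were further apart (r = 0.62), and Ifitm6 went against Ifitm2 (r = -0.74). These values are descriptions over 8 points that share libraries. Among 5760 protein-coding genes whose group means spanned at least 0.5, the closest pattern to Ifit1 was that of Oasl1 (r = 0.997), to Ifit3 that of Oasl2 (r = 0.997), to Ifitm3 that of Ube2l6 (r = 0.997), to Ifi35 that of Ogfr (r = 0.997) and to Ifit2 that of Amica1 (r = 0.995). The closest to Ifitm1 was Cul2 (r = 0.993), to Ifitm2 Wnt6 (r = 0.990) and to Ifitm6 AI661453 (r = 0.976). The group means of Ifitm2 and Ifitm6 themselves spanned only 0.39 and 0.38, so these r values describe small changes. Between 24 and 224 genes reached r of 0.95 with a given gene, so a nearest name is 1 of many.

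Relatives of the 9 genes were listed by name. Of 8 listed, 5 passed the filter, and 4 were higher in FosKO at each of the 4 times, as were 11.4% of all tested genes, and 0 lower. Ifit1bl1 was higher by 1.80 (SE 0.26), 2.15, 1.64 and 1.34, Ifit3b by 1.58 (SE 0.23), 1.83, 1.99 and 1.66, Nmi, the partner of Ifi35, by 0.58, 0.70, 0.64 and 0.71, and Ifit1bl2 by 0.49, 0.45, 0.65 and 0.43. Ifitm5, a bone gene, was not called between genotypes (0.04, -0.09, -0.13 and -0.09). Ifitm7 and Ifitm10 were below the filter and Ifi44l is not analysed here. With LPS at 2 h 4 of the 5 were higher in each genotype, where 30.6% of all genes were called higher in LysM-Cre and 32.6% in FosKO. Ifit1bl1 rose by 1.68 in LysM-Cre and 1.22 in FosKO.

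Of 13 genes of interferon production and signalling, 9, 10, 9 and 10 were higher in FosKO at 0, 0.5, 1 and 2 h, and 0, 0, 2 and 2 were lower. Of all tested genes 19.5%, 21.2%, 18% and 24.4% were called higher, and 35.4%, 40.9%, 33.9% and 44.6% in either direction. Ifnb1, which encodes interferon beta, was not called at 0 h (0.10, SE 0.12, adjusted p = 0.609, with a mean of 6.08 in LysM-Cre and 6.17 in FosKO). If values are shrunk as in a regularised log, a difference at this low level would be understated. Ifnb1 was higher in FosKO by 1.69, 3.18 and 3.00 at 0.5, 1 and 2 h. The part of Ifnb1 in the differences of the 9 genes was not tested. The transcription factor genes Stat2 (0.93, 1.21, 1.08 and 0.57), Irf9 (0.24, 0.26, 0.28 and 0.23) and Irf7 (1.05 to 1.44) were higher at all 4 times, and so was Usp18 (1.09, 1.26, 1.08 and 0.90), which restrains signalling at the receptor. The 2 genes that were lower at 1 and 2 h, named after their values were seen, encode the receptor chains, Ifnar1 (-0.17 and -0.40) and Ifnar2 (-0.14 and -0.21). At these times lower calls were at least as frequent among all tested genes, so this count is not particular to the list. The 2 h response to LPS differed between genotypes in Ifnb1 (2.91 larger in FosKO), Ifnar1 (-0.41) and Ifnar2 (-0.17), where 15% of all tested genes were called.

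Of the 26 other effector genes, 26 were higher in FosKO at each of the 4 times, with medians of 0.87, 0.94, 0.92 and 0.88, where the shares of all genes called higher were those given for the signalling genes. The smallest of these differences was 0.20, 0.26, 0.31 and 0.34 and the largest 1.92, 2.21, 2.09 and 1.42. After 2 h of LPS 24 of the 26 were higher in LysM-Cre and 25 in FosKO, with 0 lower in either, where 30.6% and 32.6% of all genes were called higher. The difference between genotypes in the LPS response was called for 1 of the 26 at 2 h, Mx2 (-0.68, smaller in FosKO), which is named because of that call, where 15% of all tested genes were called.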

How the data were processed

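The authors made strand-specific TruSeq libraries, sequenced them from a single end, and aligned and quantified them per gene with STAR 2.5.2a and RSEM 1.2.31. The methods name RefSeq genes of the mm10 build, whereas the table carries Ensembl identifiers, so the annotation behind it is uncertain. The submitters' processing notes name DESeq2 1.16.1 and GRCm38. The authors deposited normalised log2 values (-2.22 to 19.39), from which whole reads could not be recovered, so the depth of each library is unknown (the methods give only a typical yield) and no counting interval is given.

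Genes with a linear value (2 raised to the deposited value) of 5 or more in 3 or more libraries were tested. All 24 libraries entered 1 limma 3.58.1 fit (R 4.3.3) with 8 group means, 16 residual degrees of freedom, a trend on the mean and Benjamini-Hochberg adjustment over all tested genes, checked on simulated data. It gave 13 comparisons. With 3 libraries against 3, an exact permutation test cannot give a two-sided p below 0.1. Level per kb subtracted log2 of the exon length in GENCODE M21. The 9 genes and the lists of relatives, signalling genes, effectors and markers were chosen with earlier results of these data known. By a fixed rule all 9 were named, with relatives that passed the filter, Ifnb1, Stat2, Irf9, Irf7 and Usp18, and the gene with the highest Pearson r to each over the 8 group means. Values of 1 further signalling gene, and the closest pattern to Ifi44, are not reported here. Effectors were summarised as a list, and Mx2 was named after its value was seen. Alternatives were other filters, pseudocounts of 1 and 16, quantile normalisation, TMM factors on linear values, fits of only the groups compared or without the trend, replicate blocks, 18S sets and leaving out each library.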

Additional observations from a re-analysis of the deposited data

How the results depend on the processing

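The 24 calls of Ifit1, Ifit2, Ifit3, Ifi44, Ifi35 and Ifitm3 between genotypes were kept under all 17 alternatives at 0, 0.5 and 2 h. At 1 h they were kept under all alternatives that left more than 1 library in each group. The high 18S libraries held only 1 of LysM-Cre at 1 h, so for that set the differences alone are given above. Of 2219 differences of single genes under alternatives, 2187 kept their side of the threshold, 56 of them with a change of sign while called under neither setting. Another 22 became called, 4 lost their call and 6 that were called under at least 1 of the 2 settings turned over. The 6 all came with quantile normalisation, under which Ifitm3 stood at -0.20 at 1 h and -0.11 at 2 h of LPS in LysM-Cre and -0.23 and -0.28 in FosKO, and Ifitm2 at -0.10 at 1 h in LysM-Cre and -0.093 at 2 h in FosKO. The cause was not tested. Counts of the 9 genes called moved under quantile normalisation for LPS in LysM-Cre to 1 at 0.5 h and 3 at 1 h, all lower, and 5 at 2 h, for LPS at 1 h in FosKO to 3, of which Ifitm2 and Ifitm3 were lower, and for the difference in the 2 h response to 1. At 1 h in LysM-Cre the count was 1 with only the groups compared, with the replicate block, with the block within genotype and with the 18S set as a term. In the same order 5280, 5150, 5442 and 4494 of all tested genes were called. For LPS at 1 h in FosKO the count of the 9 was 2 (Ifit1 and Ifit2) with the block within genotype, beside 4948 of all tested genes. It was 1 to 2 when a library was left out (2 without FosKO 0 h replicate 3, beside 4462). For the difference between genotypes in the response the count of the 9 was 1 at 1 h with the block within genotype, beside 242 of all tested genes. At 2 h it was 1 with TMM factors, the replicate block or the block within genotype, beside 2053, 2316 and 2540. It was 0 to 1 there when a library was left out (1 without LysM-Cre 0 h replicate 1, beside 1778). Replicate numbers were not taken to pair the libraries in the main fit. Same-numbered libraries of different groups had a median correlation of 0.02 and 18 of 84 pairs were over 0.1. Across genotypes alone the median was -0.02, with 6 of 48 pairs over 0.1. Within a genotype the median was 0.06, with 12 of 36 same-numbered pairs over 0.1 against 4 of 72 with different numbers, and 15 of 24 libraries correlated best with their own number. Numbers may thus pair libraries within a genotype, and the counts that changed with a block are given above. No scaling moved the median difference of all genes by over 0.1. What depth limits could not be measured, since the reads of each library are unknown.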
